A study of Homo sapiens with 2 samples.

Results

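LCN2, SAA1, SAA2 and PDZK1IP1 were examined in RNA-seq of MDA-MB-231 cells, an established line of human triple-negative breast cancer with mesenchymal character. The series holds 1 library of cells with RBMS1 knocked down and 1 library of control cells, both from total RNA of cells grown in L15 medium with 10% serum. According to the study's methods, stable knockdown lines were made with lentiviral shRNA in the pLKO.1 plasmid. Cells with the empty pLKO.1 vector were the control, and stable lines were kept in puromycin. The study ran many of its assays with and without interferon-γ, and it does not state which applied to the sequenced cells. Which shRNA was used for the sequenced cells, and whether they were 1 clone or a pool, is not given in the sources used here. RBMS1 encodes an RNA-binding protein, and the study ran the assay to ask how it acts on the glycosylation of the immune checkpoint protein PD-L1. The 4 genes were found by their GENCODE symbol among 49627 genes listed in both libraries, and all 4 were present. They were chosen by their low level in the knockdown library, that is, by the same values that are described here, so their direction is a property of the choice and not a finding.

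Acute phase proteins are secreted proteins whose synthesis rises in inflammation, mostly in the liver but also in epithelial and tumour cells. Interleukin-1 and interleukin-6 induce many of them, acting through NF-κB, C/EBP factors and STAT3. LCN2 (lipocalin 2, or neutrophil gelatinase-associated lipocalin) binds bacterial siderophores and so withholds iron from bacteria, and it also forms a complex with the protease MMP9. SAA1 and SAA2 are the inducible serum amyloid A proteins, which travel on high-density lipoprotein and are the source of the fibrils in AA amyloidosis, whereas SAA4 is made constitutively. PDZK1IP1 (also called MAP17) is of another kind: it is a small membrane protein that binds the PDZ scaffold protein PDZK1, and it is neither secreted nor an acute phase protein in the usual sense.

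SAA1 and SAA2 are near-identical copies that lie head to head on chromosome 11, 17.5 kb apart, SAA1 on the plus and SAA2 on the minus strand. Their main transcripts, SAA1-201 and SAA2-201, each code for 122 amino acids, and 11 of the 366 coding bases differ (97.0% identity), which changes 8 amino acids (93.4% identity). A stretch of 120 coding bases holding 10 of these 11 differences is shown. Within the coding part, reads can be told apart only where such bases are covered. Capitals mark the bases that differ, and the sequences are from GENCODE 29 on GRCh38, read in the direction of transcription. The SAA1 stretch lies at chr11:18269308-18269810 and that of SAA2 at chr11:18245422-18245935, each interrupted by 1 intron that is left out.
SAA1-201, coding bases 205 to 324: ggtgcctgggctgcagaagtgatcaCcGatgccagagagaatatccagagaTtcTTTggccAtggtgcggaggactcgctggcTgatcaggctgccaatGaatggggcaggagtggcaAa
SAA2-201, coding bases 205 to 324: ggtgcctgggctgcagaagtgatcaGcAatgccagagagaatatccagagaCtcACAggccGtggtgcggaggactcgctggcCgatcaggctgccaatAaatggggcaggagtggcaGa
Outside these differences, long runs are shared. Of all windows of 50 bases in SAA1-201, 34.1% also occur in a transcript of SAA2, and of windows of 100 bases 16.9% do. For SAA2-201 the corresponding shares with SAA1 were 37.5% and 18.8%. No window of 50 bases was shared with SAA4. Because fragments from the shared runs can be divided between SAA1 and SAA2, each level below is also given as the sum of both genes.

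The promoters of LCN2 and PDZK1IP1 are shown because a description of inducible genes rests on the elements upstream of their starts. Of the 4 genes, 2 had an entry in the RefSeq promoter table (GRCh38.p14), and SAA1 and SAA2 had none. Each sequence runs from 250 bases before to 50 bases after the RefSeq start, at chr9:128149203-128149502 (plus strand) for LCN2 and chr1:47189987-47190286 (minus strand) for PDZK1IP1. Capitals mark matches to the motifs searched, on either strand.
LCN2 promoter: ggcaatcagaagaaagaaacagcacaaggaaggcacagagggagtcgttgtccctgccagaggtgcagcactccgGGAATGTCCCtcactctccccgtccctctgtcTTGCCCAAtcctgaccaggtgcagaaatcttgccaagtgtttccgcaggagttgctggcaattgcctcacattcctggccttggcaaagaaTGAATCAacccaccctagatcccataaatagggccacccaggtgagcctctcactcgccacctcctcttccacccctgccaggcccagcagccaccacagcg
PDZK1IP1 promoter: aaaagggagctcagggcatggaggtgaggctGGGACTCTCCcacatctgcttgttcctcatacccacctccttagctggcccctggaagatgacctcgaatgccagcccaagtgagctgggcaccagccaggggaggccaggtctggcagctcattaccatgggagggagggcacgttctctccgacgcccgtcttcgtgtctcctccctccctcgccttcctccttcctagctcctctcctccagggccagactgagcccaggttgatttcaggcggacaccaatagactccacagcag
In LCN2 the first capitals, beginning 175 bases before the start, match the NF-κB consensus on the opposite strand. The second match the C/EBP pattern TTNNGNAA, also on the opposite strand, beginning 143 bases before the start, and the third match the AP-1 pattern TGANTCA, 52 bases before the start. PDZK1IP1 held 1 match, to the NF-κB consensus, beginning 219 bases before its start. Neither window held the STAT pattern TTCNNNGAA or the TATA box letters TATAAA. Among 35116 RefSeq promoters of the same length, 5.91% held the NF-κB consensus, 36.8% the C/EBP pattern, 7.71% the AP-1 pattern, 7.66% the STAT pattern and 11.5% TATAAA. These matches describe letters and do not show that a factor binds.

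Levels are given in FPKM, fragments per kilobase of a transcript with scaling to the size of the library, as Cufflinks estimated them. The gene levels of LCN2, SAA1, SAA2, PDZK1IP1 and RBMS1, and some further values, are followed by the confidence interval from Cufflinks. This interval covers uncertainty within 1 library only. A gene's value is the sum over its transcripts, and its bounds are the sums of their bounds. Each group had 1 library and so no replicates, and therefore no test, SD or p-value is given between the groups. The log2 ratio of knockdown over control was taken after adding 1 FPKM to both values, which understates the change of low genes. A gene is called 2-fold lower or higher on that scale, at a log2 ratio of at most −1 or at least 1, whereas folds and percents of control are plain ratios of FPKM. Genes with a mean of at least 1 FPKM over both libraries, 11186 in number, form the background, and the median log2 ratio over them was 0.02. Coverage per FPKM was 12.3 under knockdown and 11.3 in control cells, a ratio of 1.09, so a low gene was measured with nearly the same depth in both. The number of reads is not given in the files. RBMS1 itself was listed at 3.76 FPKM (3.12 to 5.39) under knockdown and 24.1 FPKM (21.7 to 27.7) in the control library, 15.6% of control, so the labels and this gene go the same way.

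The 5 genes fixed as high in this cell line, VIM, CD44, KRT18, LGALS1 and TIMP1, lay between 141.5 and 667.8 FPKM in both libraries. Of those fixed as low or absent, ESR1, PGR and CDH1 were at 0.0996 FPKM or less in each, whereas EPCAM was at 1.93 and 3.66 FPKM and ERBB2 at 7.50 and 7.0 FPKM in the knockdown and the control library. All 10 markers of other cell types were below 1 FPKM in both libraries. Among them, MPO and ELANE, genes of neutrophil precursors, which also make LCN2, were listed at 0 in both, as were the hepatocyte gene TTR and the T cell gene CD3E, and the highest value was that of the monocyte gene CD14, at 0.783 and 0.968 FPKM.

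LCN2 (ENSG00000148346, chromosome 9, plus strand, 128149071 to 128153455) was almost lost from the knockdown library. Its level was 0.199 FPKM (0.00402 to 1.08) under knockdown and 35.3 FPKM (30.6 to 41.0) in the control library. The knockdown value was 0.563% of control, 177-fold lower, and the log2 ratio was −4.92. Among the background genes LCN2 went from rank 1410 by level in the control library to rank 11040 in the knockdown library. Even the upper bound in the knockdown library was only 3.55% of the lower bound in the control library. In bulk RNA, fewer expressing cells and less RNA per cell cannot be told apart, for LCN2 or for the genes that follow.

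SAA1 (ENSG00000173432, chromosome 11, plus strand, 18266174 to 18269977) was the most abundant of the 4 genes in both libraries. It was listed at 44.3 FPKM (40.5 to 48.4) under knockdown and 432.9 FPKM (407.8 to 458.1) in the control library. That is 10.2% of control, 9.78-fold lower, with a log2 ratio of −3.26. In the control library SAA1 ranked 109 of the background genes by level, and in the knockdown library 1100, so a well expressed gene remained. SAA2 (ENSG00000134339, chromosome 11, minus strand, 18239223 to 18248643) was at 10.2 FPKM (8.09 to 13.2) and 217.0 FPKM (203.8 to 231.1) respectively. Its knockdown level was 4.70% of control, 21.3-fold lower, with a log2 ratio of −4.28, and its rank by level went from 188 to 4776.

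Summed over both genes, serum amyloid A stood at 54.5 FPKM (48.5 to 61.6) in the knockdown library against 649.8 FPKM (611.6 to 689.2) in the control library. The sum was 8.38% of control, 11.9-fold lower, and its log2 ratio was −3.55. SAA1 made up 81.3% of the sum under knockdown and 66.6% in control cells, which is a ratio of SAA1 to SAA2 of 4.34 against 2.00. The knockdown level in percent of control ranged from 8.83% to 11.9% for SAA1 and from 3.50% to 6.49% for SAA2 when the bounds of the intervals were set against each other, so the ranges of both genes did not overlap. How far a different division of shared fragments moves this ratio was not tested.

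PDZK1IP1 (ENSG00000162366, chromosome 1, minus strand, 47183593 to 47191044) was the least expressed of the 4 genes in the control library. It was at 0.322 FPKM (0.0440 to 0.860) under knockdown and 14.7 FPKM (12.2 to 17.4) in the control library. This was 2.19% of control, 45.7-fold lower, with a log2 ratio of −3.57. By level it ranked 3539 of the background genes in the control library and 11037 in the knockdown library.

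**Figure D1:**
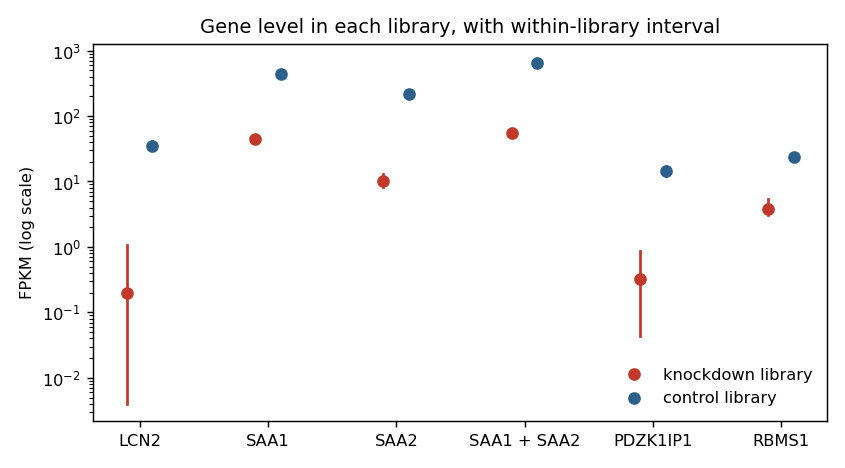
FPKM on a log axis of LCN2, SAA1, SAA2, the sum of SAA1 and SAA2, PDZK1IP1 and RBMS1, with red points for the knockdown library and blue points for the control library and lines for the Cufflinks interval within each library. The control points lie above the knockdown intervals for every gene, and the widest intervals on this axis are those of LCN2 (0.00402 to 1.08 FPKM) and PDZK1IP1 (0.0440 to 0.860 FPKM) in the knockdown library.

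Ordered by percent of control, LCN2 was the lowest, then PDZK1IP1, SAA2 and SAA1. The ranges formed by the interval bounds overlapped between LCN2 (0.00981% to 3.55%) and PDZK1IP1 (0.252% to 7.06%), and PDZK1IP1 also overlapped SAA2 (3.50% to 6.49%), so these neighbours in the order were not separated by the error within the libraries. SAA1 (8.83% to 11.9%) lay above the other genes. On the log2 scale with 1 FPKM added the order was LCN2, SAA2, PDZK1IP1 and SAA1. In both libraries SAA1 was above SAA2, and LCN2 and PDZK1IP1 were below it.

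All 4 genes were at least 2-fold lower in the knockdown library with intervals that did not overlap, and their being lower follows from how they were chosen. Of all 11186 background genes, 1282 (11.5%) had a knockdown interval wholly below the control interval, and 275 (2.46%) were also at least 2-fold lower. Among the 11186 background genes, 313 (2.8%) were at least 2-fold lower and 331 (2.96%) at least 2-fold higher. Of the 11186 genes, 142 were listed at 0 under knockdown and 162 in control cells, and Cufflinks can list a gene at 0 when an estimate fails. Over the 10882 genes above 0 in both libraries, 171 (1.57%) were at least 2-fold lower and 169 (1.55%) at least 2-fold higher. Ranked from the lowest log2 ratio among all 11186 background genes, LCN2 was rank 18, SAA2 rank 23, PDZK1IP1 rank 40, SAA1 rank 52 and RBMS1 rank 97. Among the 10882 genes above 0 in both libraries, LCN2 was rank 2, SAA2 rank 3, PDZK1IP1 rank 5, SAA1 rank 7 and RBMS1 rank 14. Together the 4 genes took 0.195% of the summed FPKM of the background genes in the control library and 0.0151% in the knockdown library.

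**Figure D2:**
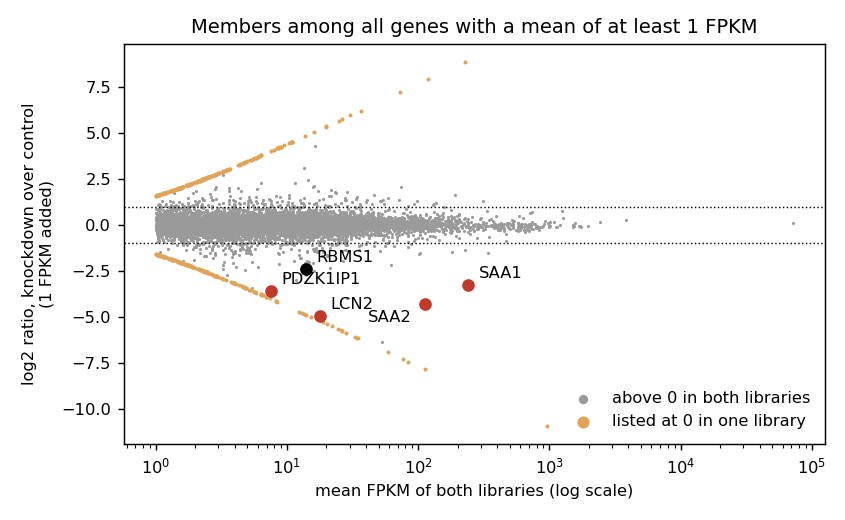
Log2 ratio of knockdown over control, with 1 FPKM added, against the mean FPKM of both libraries on a log axis for the 11186 background genes. Red points are LCN2, SAA1, SAA2 and PDZK1IP1, the black point is RBMS1, orange points are genes listed at 0 in one library and dotted lines mark a 2-fold difference. SAA1 (−3.26) and SAA2 (−4.28) stand far below most other genes of their level, though some genes listed at 0 in the knockdown library lie lower. LCN2 (−4.92) and PDZK1IP1 (−3.57) lie next to the line of genes listed at 0.

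The transcripts of each gene were then compared, since a gene's sum can hide a change of form. LCN2-201 (ENST00000277480, 7 exons, 822 nt), the main protein-coding form, was at 0.199 FPKM (coverage 2.63) under knockdown and 25.6 FPKM (coverage 299.4) in the control library, 0.777% of control. The other 6 of the 7 reference transcripts of LCN2 were listed at 0 in both libraries, whereas the authors' comparison table, which has its own FPKM scale, held LCN2-203 at 0.0749 and 1.82 FPKM beside LCN2-201 at 0.382 and 53.0 FPKM. In the control library alone, Cufflinks assembled a further LCN2 transcript of 6 exons and 518 nt at 9.71 FPKM (7.40 to 12), which was 27.5% of the gene's level there. It shares 4 introns with the reference gene and so carries the downstream LCN2 exons, but its first exon is a 44 nt segment on chromosome 9 from 128137456 to 128137499. That segment lies 12 kb upstream of the LCN2-201 start and in no gene of GENCODE 29. No such transcript was listed in the knockdown library, where the gene's total was itself 0.199 FPKM.

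SAA1-201 (ENST00000356524, 4 exons, 615 nt) carried 100% of SAA1 under knockdown and 85.4% in control cells. It was at 44.3 FPKM (coverage 444.5) under knockdown and 369.7 FPKM (coverage 3305) in the control library, 12% of control. SAA1-203 (ENST00000532858, 5 exons, 583 nt) was listed at 0 under knockdown and at 63.2 FPKM (56.8 to 69.7) in the control library, 14.6% of the gene there, and SAA1-202 was listed at 0 in both. In the authors' table SAA1-203 was not at 0 but at 16.9 FPKM in the knockdown and 197.8 FPKM in the control library, 8.55% of control, and the whole gene was at 10.2% of control. The absence of SAA1-203 in the knockdown library therefore did not hold in both deposited estimates. Nor did that of SAA1-202, which the authors' table held at 2.21 FPKM in the knockdown and 15.2 FPKM in the control library.

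In the files of the single libraries 2 forms of SAA2 were above 0, and both were lower, to unequal degrees. SAA2-201 (ENST00000256733, 4 exons, 563 nt) was at 8.58 FPKM (6.92 to 10.2) in the knockdown and 201.0 FPKM (189.5 to 212.6) in the control library, 4.27% of control. SAA2-202 (ENST00000414546, 4 exons, 1022 nt), which ends further from the shared start, was at 1.63 FPKM (1.17 to 2.09) and 15.9 FPKM (14.3 to 17.5), 10.2% of control. SAA2-202 thus made up 16.0% of the gene under knockdown and 7.34% in control cells. The authors' table gave the same order, with SAA2-201 at 3.79% and SAA2-202 at 11.8% of control. It also listed SAA2-205 at 3.47 and 46.3 FPKM, above SAA2-202 at 2.24 and 19.0 FPKM, together with SAA2-204 at 0.659 and 5.47 FPKM and SAA2-203 at 0 and 5.10 FPKM. The read-through transcript SAA2-SAA4-201 and the constitutive gene SAA4 were listed at 0 in both libraries, whereas the authors' table had SAA2-SAA4-201 at 0.778 and 4.55 FPKM.

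PDZK1IP1 had the same 2 of its 4 reference transcripts above 0 in both files of the single libraries. PDZK1IP1-201 (ENST00000294338, 4 exons, 846 nt) was at 0.260 FPKM (0.0440 to 0.476, coverage 3.44) in the knockdown and 12.3 FPKM (10.7 to 13.9, coverage 140.3) in the control library, 2.12% of control. PDZK1IP1-203 (ENST00000489919), a processed transcript without a coding sequence, was at 0.0618 FPKM (0 to 0.211) and 2.43 FPKM (1.48 to 3.38), 2.54% of control. PDZK1IP1-201 made up 80.8% and 83.5% of the gene, respectively, and the coverage of 3.44 leaves the knockdown share imprecise. The authors' table held another pair, PDZK1IP1-201 at 0.494 and 24.8 FPKM and PDZK1IP1-202 at 0 and 0.680 FPKM, so the second form was not the same in both deposited estimates.

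**Figure D3:**
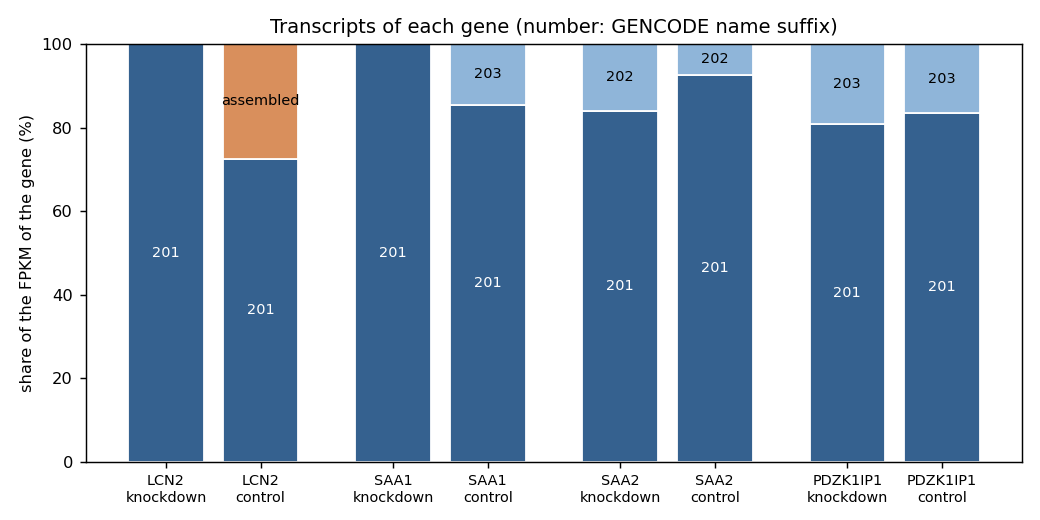
Stacked bars of the share of each gene's FPKM, in percent, taken by its transcripts in each library, with the number of the GENCODE transcript name written in each segment. The assembled LCN2 transcript (27.5%) and SAA1-203 (14.6%) appear in the control bars only, and SAA2-202 takes 16.0% of its gene in the knockdown bar against 7.34% in the control bar.

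Genes beside the 4 on their chromosomes were also measured. Within 250 kb, 24 other protein-coding genes had a mean of at least 1 FPKM, and 0 of them differed by 2-fold with 1 FPKM added, beside the background shares of 2.8% lower and 2.96% higher, so a count of 0 among 24 is near the background. Their log2 ratios ranged from −0.93 to 0.83 with a median of 0.03. Nearest to LCN2, 6.81 kb downstream, C9orf16 was at 30.4 FPKM in the knockdown and 46.1 FPKM in the control library, a log2 ratio of −0.58. The lowest ratio (−0.93) was that of DNM1, a dynamin, 38.2 kb from LCN2, at 1.68 and 4.12 FPKM, which is 2.45-fold lower as a plain ratio. Around SAA1 and SAA2 the neighbours lay between −0.11 and 0.27, among them HPS5, 8.69 kb from SAA1, at 6.87 and 5.54 FPKM, and the lactate dehydrogenase gene LDHA at 601.6 and 555.3 FPKM. Beside PDZK1IP1, the centriole gene STIL was at 15.4 and 15.1 FPKM and CMPK1, a nucleotide kinase, at 43.0 and 49.8 FPKM.

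**Figure D4:**
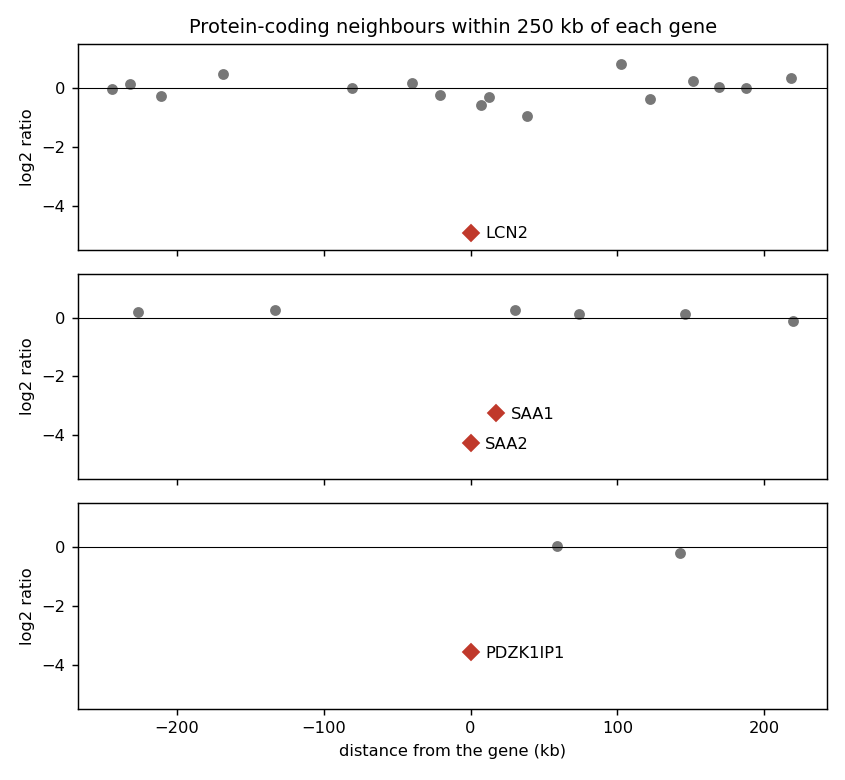
Log2 ratio of knockdown over control, with 1 FPKM added, of protein-coding genes with a mean of at least 1 FPKM against their distance in kb from LCN2, SAA2 and PDZK1IP1 (grey), with the 4 genes as red diamonds. All grey points lie between −0.93 and 0.83, while the red diamonds lie between −4.92 and −3.26.

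Other genes of the same pathways were taken from 6 lists, whose counts stand beside the background shares of 2.8% lower and 2.96% higher. Of 28 further acute phase genes, 5 passed the filter of 1 FPKM, and 3 of these were at least 2-fold lower and 0 higher, with a median log2 ratio of −1.04. With a mean of at least 5 FPKM this median was −0.57. Complement C3, the central complement protein, was at 0.113 FPKM (0.0670 to 2.90) in the knockdown and 10.7 FPKM (10.1 to 15.3) in the control library, a log2 ratio of −3.40. C3 thus passed the filter only through the control library. SERPINA1, the inhibitor of neutrophil elastase, was at 17.7 and 38.9 FPKM (−1.09), and CFB, the complement factor B, at 2.38 and 5.93 FPKM (−1.04). The remaining genes that passed were the ferritin heavy chain FTH1 at 884 and 906 FPKM and the pentraxin PTX3 at 34.7 and 26.0 FPKM, both less than 2-fold different. The classical liver products CRP, ORM1, FGB and TTR were listed at 0 in both libraries. The ferritin light chain FTL was also listed at 0 in both although it is a gene that nearly every cell uses, so a value of 0 is no proof of absence here.

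Epithelial defence genes, which LCN2 often accompanies in mucosa, were mostly below the filter. Of 22 such genes 2 passed the filter and 0 differed by 2-fold, with CST6, a cystatin, at 20.5 and 24.3 FPKM and the mucin MUC1 at 3.40 and 3.28 FPKM. S100A8, S100A9 and S100A7 were listed at 0 in both libraries.

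Among 9 partners and receptors of LCN2, 5 passed the filter, 0 were at least 2-fold lower and 1 was at least 2-fold higher with 1 FPKM added, with a median log2 ratio of 0.11. The sign of this median turned to −0.40 with reference transcripts only, where 1 gene was 2-fold lower, and to −0.66 with a mean of at least 5 FPKM. The iron exporter SLC40A1 (ferroportin) was at 2.18 FPKM (1.91 to 3.13) in the knockdown and 0.535 FPKM (0.402 to 2.18) in the control library, a log2 ratio of 1.05, and its intervals overlapped. SLC40A1 passed the filter only through the knockdown library. The transferrin receptor TFRC was at 76.4 and 101.2 FPKM (−0.40), and the iron transporter SLC11A2 at 4.18 and 8.76 FPKM (−0.91), which is 2.1-fold lower as a plain ratio. The LCN2 receptor gene SLC22A17 was listed at 0 in both libraries, and MMP9 was at 0.0764 and 0.190 FPKM.

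For SAA, 6 of 10 receptors and binding partners passed the filter and 0 differed by 2-fold with 1 FPKM added, with a median of 0.21 that turned to −0.0866 with a mean of at least 5 FPKM. The cystatin CST3 was at 146.1 and 124.5 FPKM, the lipoprotein receptor SCARB1 at 9.18 and 12.4 FPKM and the innate receptor TLR2 at 1.14 and 2.32 FPKM. As plain ratios, TLR2 was 2.04-fold lower and the formyl peptide receptor FPR1, at 1.77 and 0.411 FPKM, 4.30-fold higher. With reference transcripts only, 3 of these genes passed the filter, the log2 ratio of SCARB1 was −3.34 instead of −0.40, and it was then the 1 gene of this list at least 2-fold lower. TLR2 was then at −0.13 instead of −0.63 and FPR1 at 0.41 instead of 0.97. FPR2, a related receptor and known SAA receptor, was at 0.0528 and 0.0573 FPKM. Among 10 partners of PDZK1IP1, 4 passed and 0 differed by 2-fold, with a median of 0.00. The scaffold genes SLC9A3R2 and SLC9A3R1 were at 39.0 and 34.7 FPKM and at 13.0 and 13.2 FPKM, and NUMB was at 17.3 and 17.0 FPKM. PDZK1 itself was at 0.455 and 0.405 FPKM, below the filter.

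Of 19 inducers and transcription factors of the acute phase response, 14 passed the filter. Of these, 3 were at least 2-fold lower and 0 at least 2-fold higher, with a median of −0.38. A log2 ratio below 0 was found for 11 of the 14, beside 47.2% of the background genes, and NFKB1, 1 of the 11, was at 0.22 instead of −0.53 with reference transcripts only. The 3 lower ones were the cytokines IL1B at 0.570 and 5.97 FPKM (−2.15), IL1A at 0.873 and 6.90 FPKM (−2.08) and IL6 at 5.54 and 19.0 FPKM (−1.61). With reference transcripts only, IL1B was at −1.55, IL1A at −2.08 and IL6 at −2.05. IL1B and IL1A were below 1 FPKM under knockdown and passed the filter only through the control library. Among inducers with a mean of at least 5 FPKM, 1 was 2-fold lower. The signal transducer of the interleukin-6 family, IL6ST, was at 37.4 and 52.6 FPKM (−0.48), and the factors RELA at 27.9 and 32.1 FPKM (−0.19) and STAT3 at 22.2 and 20.2 FPKM (0.12) were within 2-fold. Whether the cytokine levels have a part in the levels of LCN2, SAA1 or SAA2 was not tested.

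**Figure D5:**
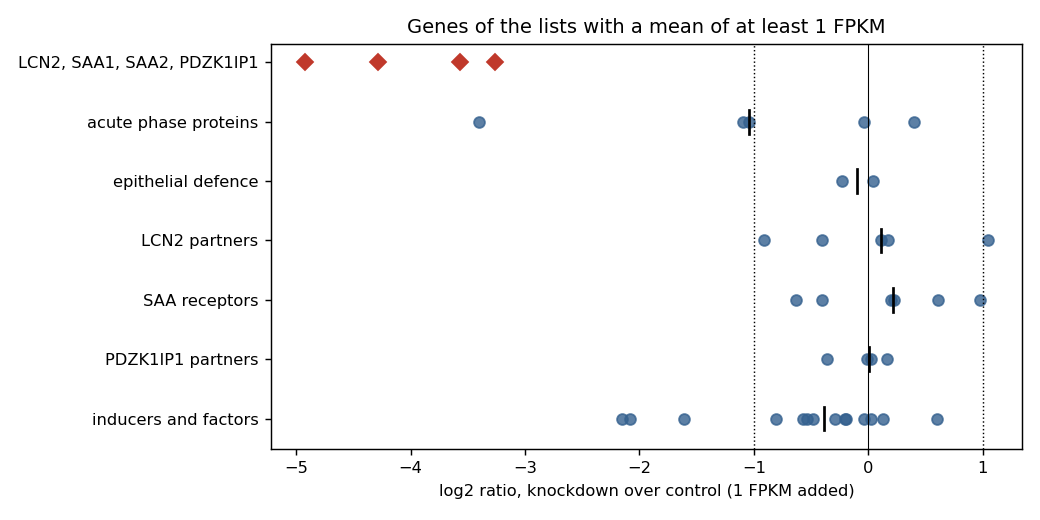
Log2 ratios of knockdown over control, with 1 FPKM added, of the 4 genes (red diamonds) and of the list genes with a mean of at least 1 FPKM (blue points), with a black bar at each list's median and dotted lines at a 2-fold difference. The acute phase list (median −1.04) and the inducers (median −0.38) have members beyond the left dotted line, and 1 gene, SLC40A1, lies beyond the right one.

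The genes most like the 4 were sought among the other protein-coding genes above 0 in both libraries by how near their log2 ratio lay to the median of the 4, −3.93, over these 2 libraries. The collagenase gene MMP1 came closest, at 2.59 FPKM in the knockdown and 54.3 FPKM in the control library (−3.95), followed by C3 (−3.40). The chemokine gene CXCL1 was next at 1.81 and 21.6 FPKM (−3.01), then the secretory granule chaperone gene SCG5 at 1.70 and 17.3 FPKM (−2.76). Such likeness over 2 libraries is a single ratio and not a pattern across conditions.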

How the data were processed

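RNA-seq of 2 MDA-MB-231 libraries, 1 with RBMS1 knocked down and 1 control, was used, with groups taken from the labels. The submitters' processing notes name Bowtie2 2.0.6, TopHat2 2.0.9, Cufflinks 2.1.1 and Cuffdiff 2.1.1, and the genome build is not given in the sources used here. The authors deposited per library the reference and assembled transcripts with FPKM values, intervals and coverage, and a comparison table whose FPKM values served only as an alternative. Its fold changes and p-values, the authors' own comparison, were not used. Transcripts were joined to GENCODE 29 (GRCh38), where 98.1% of the matched ones started at the annotated position. FPKM values of the reference transcripts of a gene were summed, together with assembled transcripts having 1 or more introns in common with it on its strand. Whether the libraries keep strand is not given in the sources used here. Log2 ratios used a pseudocount of 1 FPKM, and genes with a mean of at least 1 FPKM were counted. The ratio and threshold were run on copies of the control values with known changes put in and no noise, which checks the calculation only. The members and gene lists were chosen with earlier results of these data known. Named genes were RBMS1, the 4 genes, list genes with at least 1 FPKM in either library that differed by 2-fold or otherwise the highest, the protein-coding neighbours within 250 kb by range, and the 5 genes of nearest ratio, of which 1 is not reported here. Genes below the filter, those listed at 0 and single neighbours were named after their values were seen. Fragments per library are unknown, so precision rests on the Cufflinks intervals and coverage. Analyses used Python 3.11.15 with pandas 2.3.3 and numpy 2.4.6.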

Additional observations from a re-analysis of the deposited data

Results flagged for a closer look

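A single-exon transcript was assembled within the span of SAA2 in the knockdown library and belongs to no gene's sum, since it shares no intron with one. It lies on chromosome 11 from 18243846 to 18244650 on the minus strand, is 805 nt long, and was listed at 0.574 FPKM (0.267 to 0.881) with a coverage of 7.59. None was listed within SAA2 in the control library. It drew attention because it is a signal outside the values compared above, and whether it is part of SAA2 was not tested.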

How the results depend on the processing

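LCN2, SAA1, SAA2, PDZK1IP1 and the SAA sum had lower levels in the knockdown library under each of the 8 alternatives run. The log2 ratio ranged from −6.89 to −2.95 for LCN2, −3.30 to −3.03 for SAA1, −4.40 to −3.87 for SAA2, −5.13 to −1.89 for PDZK1IP1 and −3.59 to −3.41 for the sum. The size for LCN2 and PDZK1IP1, whose knockdown values are below 1 FPKM, depended on the pseudocount: −6.89 and −5.13 with 0.1 FPKM, and −2.95 and −1.89 with 5 FPKM, which also gave −1.73 for RBMS1. In TPM they were −6.00 and −4.47, with the pseudocount smaller beside the values. PDZK1IP1 was at −4.15 in the authors' table, an alternative chosen after seeing the data, and SAA1 at −3.03 with the dominant transcript only.

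Genes at least 2-fold lower numbered 313 of 11186. With a pseudocount of 5 FPKM they numbered 133 of 11186, with reference transcripts only 507 of 10407, and with the dominant transcript only 477 of 10065. In TPM, where the pseudocount is smaller beside the values and more genes pass the filter, they numbered 671 of 13711. A mean of at least 5 FPKM gave 138 of 7248. Of genes above 0 in both libraries, a setting also chosen after seeing the data, 171 of 10882 were lower. These counts are the background for list counts under the same setting. Under a mean of at least 5 FPKM the medians were −0.57 for acute phase genes, −0.23 for epithelial defence genes, −0.66 for LCN2 partners and −0.0866 for SAA receptors, the last 2 reversed in sign, and 1 inducer was 2-fold lower. Fewer genes entered these lists. With reference transcripts only, the LCN2 partners' median reversed to −0.40, and 1 gene was 2-fold lower in each of the LCN2 partner and SAA receptor lists, SLC11A2 (−1.21) and SCARB1 (−3.34), and NFKB1 was at 0.22 instead of −0.53. No paired analysis was possible because each condition was sequenced once. With no pseudocount, an alternative chosen after seeing the data, 1 gene was 2-fold lower among the LCN2 partners, SLC11A2, and 1 among the SAA receptors, TLR2. On that scale 1 gene of each of these lists was 2-fold higher, SLC40A1 and FPR1. The share of all background genes was not counted without a pseudocount. With 1 library per condition there is no replicate error.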
